A study of Homo sapiens with 8 samples.

Results

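Transcripts of 8 cytokine genes of myeloid cells were followed across the whole expression table of 2 acute myeloid leukaemia cell lines: IL1B, IL1RN, TNF, OSM, CSF1, TGFB1, LTB and IL18. The genes were chosen by symbol, each matched a single row, and together they are 8 of 25593 gene rows. The groups were HL60 given 100 nM cinobufagin, HL60 without the drug, Kasumi-1 given 100 nM cinobufagin and Kasumi-1 without the drug, each cultured for 24 h and each with 2 RNA sequencing libraries numbered 1 and 2. HL60 is promyelocytic and carries MYC amplification. Kasumi-1 is myeloblastic and carries the RUNX1-RUNX1T1 fusion. Each is a single clonal leukaemia grown in suspension without the T cells, stroma or endothelium with which cytokines act in the body, and the media of the lines differed in serum content, so serum and line cannot be told apart. Cinobufagin is a bufadienolide of toad venom that inhibits the sodium and potassium pump, as cardiac glycosides do. No label gives the number of cultures behind a group. The p-values set a difference between groups against the spread of libraries within groups, and that spread may be only technical.

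Cytokines are secreted or membrane-bound proteins through which immune cells signal to each other. TNF and interleukin-1 beta, the protein of IL1B, are early inflammatory signals of monocytes and macrophages, and their genes are textbook targets of the transcription factor NF-kB. The protein of IL1RN is the antagonist that occupies the interleukin-1 receptor without signalling. LTB encodes lymphotoxin beta, a membrane partner of lymphotoxin alpha. CSF1 is the growth factor of macrophages, OSM (oncostatin M) belongs to the interleukin-6 family, TGFB1 encodes a latent regulator of growth and inflammation, and IL18, like IL1B, encodes a precursor that caspase-1 cleaves.

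Values are FPKM, a count of fragments scaled by transcript length and by the mapped total of the library, so levels can be set side by side between genes, and every change is relative to the other genes of the same library. In bulk RNA, fewer cells of a type and less RNA per cell cannot be told apart. Changes are differences of log2(FPKM + 1), which understate the change of low genes, tested with limma over 12511 genes with an FPKM of at least 1 in at least 2 libraries. A gene counts as changed where its adjusted p is under 0.05. Relative sequencing depth lay between 0.88 and 1.12, and 10623 to 11371 genes per library reached an FPKM of 1. MPO, the peroxidase of granule-forming myeloid cells, was at 245 to 274 FPKM in treated and 3285 to 3369 in untreated HL60, and at 7379 to 7381 in treated and 6013 to 6098 in untreated Kasumi-1. Summed over 10 myeloid markers the level was 1679 to 1881 FPKM in treated HL60, against 5472 to 5542 in untreated HL60. MPO was the largest part of the untreated sum. In HL60 3 markers, SPI1, ITGAM and LYZ, rose and 7 fell, against 36.0% and 37.6% of all tested genes. LYZ stood at 1029 and 1198 FPKM in treated HL60, against 677 and 733 in untreated HL60. The Kasumi-1 sum was 13525 to 13909 FPKM in treated and 10420 to 10686 in untreated cells. Of the 10 markers 6 rose and 1 fell there, against 10.1% and 16.2%. T and B cells also make LTB and TNF. The summed level of 8 T and NK cell markers was 1.26 to 1.50 FPKM in treated and 0.741 to 0.887 in untreated HL60, with CD3G at 0 in every library, and that of 6 B cell markers was 0.505 to 0.949 and 4.11 to 4.12 FPKM, with MS4A1 and BLK at 0 in every library. In treated and untreated Kasumi-1 the T and NK cell sum was 1.76 to 2.203 and 3.003 to 3.43 FPKM, and the B cell sum 6.71 to 10.9 and 14.5 to 15.3 FPKM. Of these markers 5 of 8 and 4 of 6 stayed under 1 FPKM in all 8 libraries. CD79B made up most of the Kasumi-1 B cell sum, at 9.70 and 5.40 FPKM in treated and 13.3 and 14.0 in untreated cells. CD8A stood at 1.45 to 1.70 FPKM in Kasumi-1. HL60 had CD79A at 0.832 and 0.459 FPKM treated and 3.41 and 2.69 untreated, and CD3E at 0.893 and 1.15 against 0.0854 and 0.249. The part of these marker changes in the cytokine results was not tested.

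In HL60, cinobufagin raised 6 of the 8 genes and lowered 1. TNF, LTB, IL1B, IL1RN, TGFB1 and CSF1 rose, IL18 fell, and OSM did not pass the test. The background is high in this comparison, since 73.6% of the 12511 tested genes were called, 36.0% higher and 37.6% lower. By values alone, 7 of the 8 genes were higher in both treated libraries than in both untreated ones and 1 was lower, against 42.2% and 44.7% of all tested genes. The median log2 change of the 8 genes was 2.26, against −0.01 for all tested genes. IL1RN and CSF1 reached an FPKM of 1 only in treated HL60, so they were tested only because they were high there, and the count and the median that include them are descriptions that support nothing. The summed FPKM of the 8 genes was 369 and 362 in treated HL60, against 61.1 and 65.9 in untreated HL60.

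**Figure D1:**
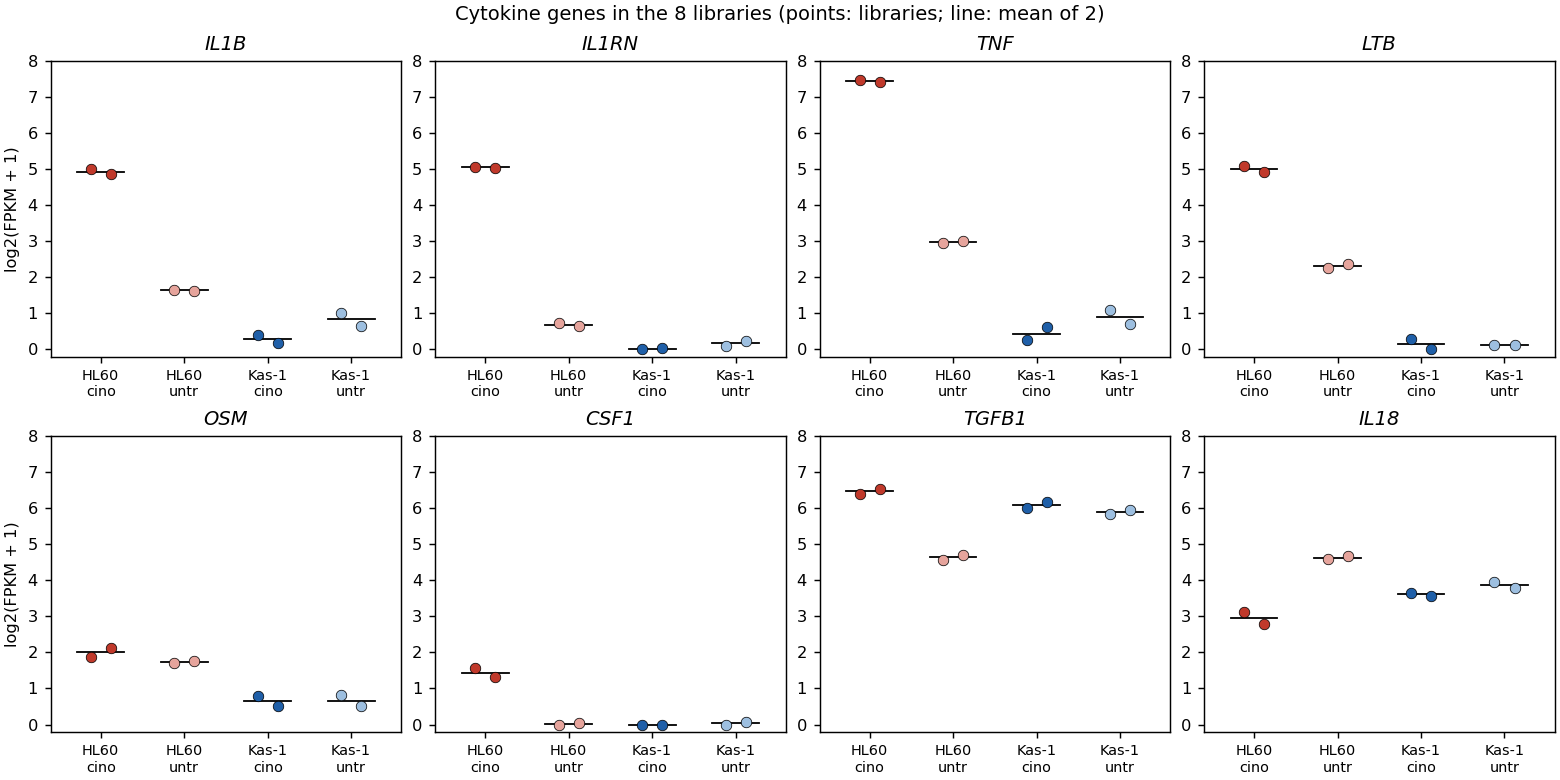
Level of each cytokine gene, as log2(FPKM + 1), in the 2 libraries of each group (points) with the group mean (line); cino is 100 nM cinobufagin and untr is untreated. TNF, LTB, IL1B and IL1RN are high only in treated HL60, at 27.9 FPKM or more, whereas TGFB1 is high in both lines and IL18 is lower in treated than in untreated HL60.

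TNF was the most abundant of the 8 transcripts in treated HL60. It stood at 177 and 169 FPKM in treated HL60, against 6.72 and 6.98 in untreated HL60. The groups lay far apart, with means of 173 ± 5.02 and 6.85 ± 0.186 FPKM (SD, n = 2 each), a 25.3-fold ratio. The log2 change was 4.47 (SE 0.16, limma adjusted p = 1.37e-06), with 4.52 for the first-numbered pair and 4.42 for the other, and ranked 47 among the 12511 tested genes. TNF made up 47.8% and 46.8% of the summed FPKM of the 8 genes in treated HL60, against 11.0% and 10.6% in untreated HL60.

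LTB, from the same gene cluster as TNF, rose less. It stood at 32.8 and 29.2 FPKM in treated HL60, against 3.79 and 4.19 in untreated HL60, a 7.77-fold ratio of the means. The log2 change of 2.68 (SE 0.11, limma adjusted p = 2.65e-06) ranked 175.

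The interleukin-1 genes rose on both sides of the receptor, ligand and antagonist. IL1B stood at 30.8 and 27.9 FPKM in treated HL60, against 2.12 and 2.102 in untreated HL60, a 13.9-fold ratio of the means. On the log2 scale it was 3.29 higher (SE 0.14, limma adjusted p = 2.8e-06). IL1RN stood at 32.7 and 32.0 FPKM in treated HL60, against 0.654 and 0.565 in untreated HL60, a 53.1-fold ratio of the means and more than the ratio of TNF. No p is given for IL1RN, which was tested only because it was high in treated HL60. Its log2 change of 4.37 (SE 0.07) was close to that of TNF at a pseudocount of 1. At a pseudocount of 0.1 it was 5.52 against 4.64 for TNF. Treated libraries thus held about equal FPKM of antagonist and ligand: the IL1RN to IL1B ratio was 1.06 and 1.15 in treated HL60, against 0.309 and 0.269 in untreated HL60. That ratio is given as a description and was not tested.

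IL18 went the other way. It stood at 7.77 and 5.87 FPKM in treated HL60, against 23.0 and 24.4 in untreated HL60, so that the treated mean of 6.82 ± 1.34 FPKM was 3.47-fold lower than the untreated mean of 23.7 ± 1.05 (SD, n = 2 each). Its log2 change was −1.67 (SE 0.12, limma adjusted p = 2.67e-05), with −1.45 for the libraries numbered 1 and −1.89 for those numbered 2. In untreated HL60 IL18 and TGFB1 were the highest of the 8 genes, and in treated HL60 IL18 lay above only OSM and CSF1.

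TGFB1 was already high without the drug and rose further. It stood at 83.8 and 92.5 FPKM in treated HL60, against 22.6 and 25.2 in untreated HL60, a 3.69-fold ratio. On the log2 scale it was 1.84 higher (SE 0.09, limma adjusted p = 4.49e-06). CSF1 stood at 1.96 and 1.48 FPKM in treated HL60, against 0 and 0.0353 in untreated HL60. Its log2 change of 1.41 (SE 0.09) is held down by the added 1. No ratio is given because a library is listed at 0, and no p because CSF1 was tested only for its level in treated HL60.

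OSM was the exception. It stood at 2.69 and 3.34 FPKM in treated HL60, against 2.24 and 2.40 in untreated HL60, so both treated libraries lay above both untreated ones by a small margin. The log2 change was 0.27 with a 95% interval of −0.09 to 0.63 (limma adjusted p = 0.148). It passed with quantile normalization (adjusted p = 0.0409) and with libraries brought to a common sum over rows other than short RNAs (adjusted p = 0.0383).

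The transcription start regions of the genes that rose together are shown for a look at their sequence. RefSeq (GRCh38.p14) gives start regions of 250 bases before to 50 after the start for 5 of the 8 genes. Capitals mark matches, on either strand, to the NF-kB consensus, to the AP-1 motif TGANTCA or to the TATA box TATAAA. The TNF region is chr6:31575315-31575614 (+ strand), that of LTB is chr6:31582376-31582675 (− strand), that of IL1B is chr2:112836730-112837029 (− strand), that of the most downstream of 3 IL1RN starts is chr2:113127348-113127647 (+ strand), and that of TGFB1 is chr19:41353873-41354172 (− strand).
TNF: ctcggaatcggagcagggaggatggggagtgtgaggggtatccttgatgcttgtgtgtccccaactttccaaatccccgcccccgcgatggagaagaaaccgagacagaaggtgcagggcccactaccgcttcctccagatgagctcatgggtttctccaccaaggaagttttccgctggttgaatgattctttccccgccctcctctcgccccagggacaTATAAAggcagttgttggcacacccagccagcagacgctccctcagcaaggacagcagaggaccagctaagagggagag
LTB: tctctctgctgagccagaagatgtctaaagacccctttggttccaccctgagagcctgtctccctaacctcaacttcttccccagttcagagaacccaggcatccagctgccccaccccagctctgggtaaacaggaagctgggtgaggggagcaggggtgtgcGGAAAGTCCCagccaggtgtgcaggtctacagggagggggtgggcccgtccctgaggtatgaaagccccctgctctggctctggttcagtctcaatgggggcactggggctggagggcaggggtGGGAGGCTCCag
IL1B: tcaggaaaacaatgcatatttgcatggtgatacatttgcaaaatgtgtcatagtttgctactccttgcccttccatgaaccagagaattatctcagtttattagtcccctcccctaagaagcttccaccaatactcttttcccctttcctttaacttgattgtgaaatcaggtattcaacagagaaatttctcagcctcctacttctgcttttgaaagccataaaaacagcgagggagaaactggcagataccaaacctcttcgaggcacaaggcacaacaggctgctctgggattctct
IL1RN: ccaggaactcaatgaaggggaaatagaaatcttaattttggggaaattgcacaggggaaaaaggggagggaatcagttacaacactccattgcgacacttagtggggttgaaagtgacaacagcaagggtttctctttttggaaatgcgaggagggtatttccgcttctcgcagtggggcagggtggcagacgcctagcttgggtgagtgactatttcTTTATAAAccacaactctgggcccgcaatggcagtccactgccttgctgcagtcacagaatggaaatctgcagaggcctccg
TGFB1: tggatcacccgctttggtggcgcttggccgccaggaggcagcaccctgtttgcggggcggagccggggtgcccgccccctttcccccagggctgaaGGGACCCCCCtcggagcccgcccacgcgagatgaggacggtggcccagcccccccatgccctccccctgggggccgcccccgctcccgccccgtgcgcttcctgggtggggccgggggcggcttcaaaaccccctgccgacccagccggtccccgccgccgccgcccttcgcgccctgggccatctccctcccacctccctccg

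TNF had a TATA box beginning 29 bases before its start, and the IL1RN region had 2 overlapping matches on opposite strands, beginning 32 and 30 bases before the start. LTB held 2 NF-kB matches, beginning 86 bases before and 38 bases after its start, and TGFB1 held 1 that reads on both strands, 154 bases before. An AP-1 match lay 223 bases before the most upstream IL1RN start, whose region is not printed. The IL1B window held none of the 3 motifs. Among 34796 distinct RefSeq windows of the same length, 11.3% held the NF-kB consensus, 7.73% the AP-1 motif and 11.6% the TATA box. A match is a string of letters and not a site shown to be bound, and enhancers outside these windows were not searched.

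In Kasumi-1, the same dose and time lowered 1 of the 8 genes, IL1B, and raised 0 (limma, also 0 at an unadjusted p under 0.05, where TNF and IL1B were lower). These counts leave out the pairing of libraries by number, and a fit with the replicate number as a block also called TGFB1 higher. In the main fit of this comparison 26.3% of tested genes were called, 10.1% higher and 16.2% lower. These shares rest on 3292 calls, which dropped to between 1621 and 2749 when any 1 library was left out, with 1689 and 1621 calls without untreated Kasumi-1 replicate 1 or 2, and 1785 without treated replicate 1 and 2067 without treated replicate 2. The median log2 change was −0.09 for the 8 genes against −0.04 for all. By values alone, 1 of the 8 genes was higher in both treated libraries and 4 were lower, against 25.6% and 35.9% of all tested genes. The share of rises among all calls was 38.5%, or 51.7% after rescaling by median ratios. The summed FPKM of the 8 genes was 76.8 and 82.9 in treated Kasumi-1, against 73.3 and 76.1 in untreated Kasumi-1, nearly all of it TGFB1 and IL18.

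IL1B stood at 0.329 and 0.124 FPKM in treated Kasumi-1, against 1.03 and 0.570 in untreated Kasumi-1. The groups did not overlap, but all 4 values were near or below 1 FPKM. The log2 change was −0.55 (SE 0.14, limma adjusted p = 0.0343, and 0.0101 with the replicate number as a block). The call was lost when any library other than untreated Kasumi-1 replicate 2 was left out (adjusted p between 0.0540 and 0.136). It was also lost with no filter on low values (adjusted p = 0.0657) and with quantile normalization (adjusted p = 0.0584).

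TNF stood at 0.194 and 0.546 FPKM in treated Kasumi-1, against 1.15 and 0.647 in untreated Kasumi-1, with a log2 change of −0.47 (95% interval −0.85 to −0.08, limma adjusted p = 0.0759). Without treated Kasumi-1 replicate 2 the adjusted p was 0.0481. IL1RN was listed at 0 and stood at 0.0346 FPKM in treated Kasumi-1, against 0.0751 and 0.171 in untreated Kasumi-1 (log2 change −0.14, adjusted p = 0.203, and −0.91 with adjusted p = 0.0457 at a pseudocount of 0.1). LTB was at 0.221 and listed at 0 in treated Kasumi-1, against 0.0901 and 0.0821 in untreated Kasumi-1. CSF1 was listed at 0 in both libraries of treated Kasumi-1, and untreated Kasumi-1 had 0 and 0.0561 FPKM.

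TGFB1 and IL18 were the members that Kasumi-1 expressed clearly. TGFB1 stood at 63.8 and 70.9 FPKM in treated Kasumi-1, against 55.8 and 61.3 in untreated Kasumi-1. The treated values lay above the untreated ones, by a log2 change of 0.20 (95% interval −0.02 to 0.41, limma adjusted p = 0.153). Libraries numbered 1 differed by 0.19 and those numbered 2 by 0.21, and with the replicate number as a block it passed the test (adjusted p = 0.00463). IL18 stood at 11.6 and 10.8 FPKM in treated Kasumi-1, against 14.4 and 12.8 in untreated Kasumi-1, a log2 change of −0.26 (95% interval −0.55 to 0.03, adjusted p = 0.166, and 0.098 with the block). OSM stood at 0.731 and 0.420 FPKM in treated Kasumi-1, against 0.771 and 0.415 in untreated Kasumi-1. Its values followed the replicate number rather than the drug, and the groups overlapped (log2 change −0.01, 95% interval −0.38 to 0.35).

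**Figure D2:**
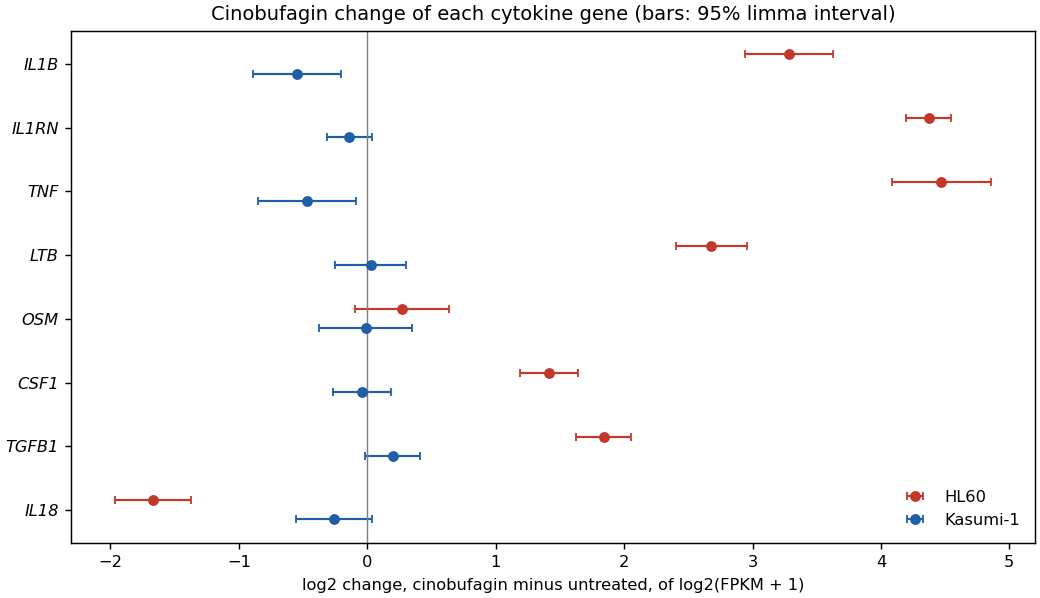
Change of each cytokine gene with cinobufagin, as the log2 difference from untreated cells on the log2(FPKM + 1) scale, with 95% limma intervals, in HL60 (red) and Kasumi-1 (blue). In HL60 the intervals of TNF, IL1RN, IL1B, LTB, TGFB1 and CSF1 lie above 0 and that of IL18 lies below 0, whereas in Kasumi-1 all 8 estimates lie between −0.55 and 0.20. IL1RN and CSF1 were tested only because treated HL60 was high, so their HL60 intervals are descriptions.

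The change differed between the lines for 7 of the 8 genes by the interaction term of the fit. By that term 63.1% of all tested genes were called, 30.1% higher and 33.1% lower in Kasumi-1. The count of 7 includes IL1RN and CSF1, tested only because treated HL60 was high, so it describes and supports nothing. For 6 genes the change in Kasumi-1 was lower than that in HL60. The difference, Kasumi-1 minus HL60, was −4.94 for TNF (SE 0.23, limma adjusted p = 1.14e-05), −4.51 for IL1RN (SE 0.10), −3.83 for IL1B (SE 0.20), −2.65 for LTB (SE 0.16), −1.64 for TGFB1 (SE 0.13) and −1.45 for CSF1 (SE 0.13). For IL18 it was 1.41 (SE 0.17, limma adjusted p = 0.000568), with a fall in HL60 and a change that did not pass the test in Kasumi-1. For OSM it was −0.28 with a 95% interval of −0.80 to 0.23 (adjusted p = 0.281), which does not show that the lines responded alike.

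**Figure D3:**
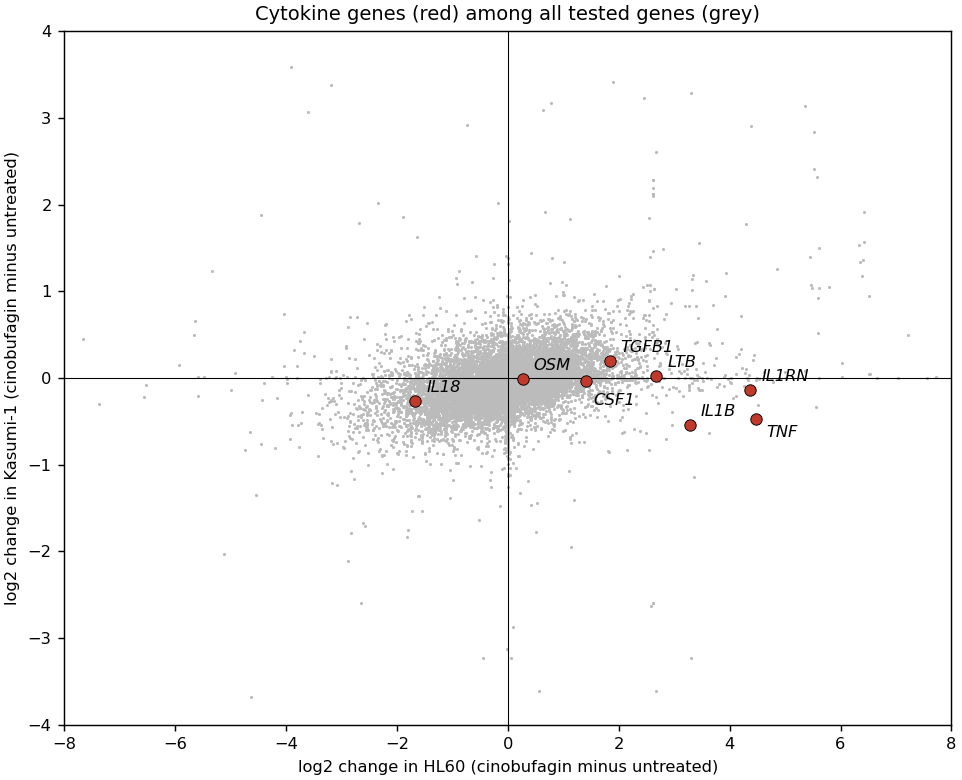
Change with cinobufagin in HL60 (x axis) and Kasumi-1 (y axis) for 12511 tested genes (grey) and the 8 cytokine genes (red), as log2 differences on the log2(FPKM + 1) scale; 28 genes lie outside the axes. TNF, IL1RN, IL1B and LTB lie far to the right, at 2.68 or more in HL60 and at 0.03 or less in Kasumi-1, and IL18 lies to the left.

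Before treatment the lines already differed in these genes. In untreated Kasumi-1, set against untreated HL60, 6 of the 8 genes were lower and 1 was higher, where 69.7% of all tested genes were called, 33.8% lower and 35.9% higher. By values alone the split was also 6 lower and 1 higher, against 41.5% and 43.0% of all tested genes. LTB and OSM reached 1 FPKM only in HL60, and IL1RN and CSF1 only in treated HL60. IL1B and TNF reached it in only 1 Kasumi-1 library. The counts that include these genes are descriptions that support nothing. LTB was 46.3-fold lower by mean FPKM, at 0.0861 ± 0.00572 in untreated Kasumi-1 against 3.99 ± 0.278 in untreated HL60 (SD, n = 2 each). The untreated Kasumi-1 values, 0.0901 and 0.0821 FPKM, were near 0, so this ratio and the Kasumi-1 SD are uncertain. The log2 change was −2.20 (SE 0.11), and −4.46 at a pseudocount of 0.1. No p is given for LTB, which was tested only because it was high in HL60. TNF was lower by a log2 change of −2.06 (SE 0.16), OSM by −1.07 (SE 0.15), IL1B by −0.80 (SE 0.14), IL18 by −0.76 (SE 0.12) and IL1RN by −0.52 (SE 0.07). TGFB1 was higher, at 58.5 ± 3.86 FPKM in untreated Kasumi-1 against 23.9 ± 1.87 in untreated HL60 (log2 change 1.26, SE 0.09, adjusted p = 2.46e-05). CSF1 was near 0 in both (log2 change 0.01, adjusted p = 0.901).

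The order of the 4 groups is given as a description, without the share of all genes that show each order. IL1B, IL1RN and TNF ran from treated HL60 through untreated HL60 and untreated Kasumi-1 down to treated Kasumi-1, with no overlap between neighbours. LTB and OSM had the same order in HL60, but the Kasumi-1 groups overlapped, and for CSF1 the groups other than treated HL60 overlapped at or near 0. TGFB1 was highest in treated HL60 and then ran through treated and untreated Kasumi-1 to untreated HL60, without overlap. IL18 ran from untreated HL60 through untreated and treated Kasumi-1 to treated HL60, also without overlap.

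The partner genes of the cytokines were counted by list. Each count in HL60 is to be read against 36.0% of all tested genes higher and 37.6% lower, and each count in Kasumi-1 against 10.1% higher and 16.2% lower. Some of them, such as IL1R1 and CD70, were tested only because treated HL60 was high, so these counts describe and support nothing.

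Of 14 genes of the interleukin-1 family other than the members, 9 were tested, of which 8 rose and 1 fell in HL60, while 1 rose and 1 fell in Kasumi-1. IL1R1, the signalling receptor, stood at 19.9 and 19.1 FPKM in treated HL60, against 0.320 and 0.277 in untreated HL60 (log2 change 3.98). IL1R2, the decoy receptor, stood at 15.2 and 13.5 FPKM in treated HL60, against 0.511 and 0.542 in untreated HL60. Both were at or near 0 in Kasumi-1. SIGIRR, a receptor that dampens this signalling, fell to 3.07 and 2.73 FPKM in treated HL60, against 24.6 and 23.2 in untreated HL60. IL1RAP, the shared receptor subunit, rose in both lines. It stood at 75.0 and 80.8 FPKM in treated HL60, against 6.34 and 6.63 in untreated HL60 (log2 change 3.40, adjusted p = 1.48e-06). In Kasumi-1 it rose to 9.65 and 11.4 FPKM in treated cells, against 4.76 and 6.21 in untreated cells (log2 change 0.83, adjusted p = 0.00595).

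The genes that process the interleukin-1 beta and interleukin-18 precursors did not move as a block. Of 9 tested inflammasome genes 3 rose and 5 fell in HL60, and 1 rose in Kasumi-1. GSDMD, which encodes the pore protein gasdermin D, stood at 6.33 and 6.19 FPKM in treated HL60, against 28.01 and 26.6 in untreated HL60 (log2 change −1.96). CARD8 and NEK7, regulators of inflammasomes, rose by log2 changes of 0.94 and 1.03, and PYCARD, the adaptor ASC, fell in HL60 (log2 change −0.45, adjusted p = 0.00522) and rose in Kasumi-1 (0.34, adjusted p = 0.0453). Among 10 genes of receptor signalling 6 rose and 2 fell in HL60, with the adaptor MYD88 at a log2 change of 1.73, TAB2 at 1.70 and TOLLIP at 1.29. In Kasumi-1 3 rose, among them the kinase genes IRAK4 by 0.28 and IRAK1 by 0.30. IRAK4 fell in HL60 (−0.52, adjusted p = 0.000371), and IRAK1 did not pass the test there (−0.08, adjusted p = 0.415).

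Of 14 genes through which TNF and lymphotoxin act, 11 rose and 2 fell in HL60, against 36.0% and 37.6% of all tested genes, and 5 rose in Kasumi-1, against 10.1%. ADAM17, the protease that sheds TNF from the membrane, stood at 48.0 and 49.7 FPKM in treated HL60, against 9.56 and 10.6 in untreated HL60 (log2 change 2.17, adjusted p = 8.06e-07). TNFAIP3, a feedback inhibitor, rose by a log2 change of 2.68 and BIRC3, an inhibitor of apoptosis, by 2.32. In Kasumi-1 the receptor gene TNFRSF1A rose by 0.27 (adjusted p = 0.0121) and CFLAR by 0.51, and in HL60 they rose by 0.87 and 2.04. Of 6 other tested ligands of the TNF superfamily 3 rose and 1 fell in HL60. TNFSF14 and CD70 rose by 2.73 and 3.28, whereas TNFSF13B, the B cell factor BAFF, was at 0.709 and 0.711 FPKM in treated HL60, against 10.0 and 9.53 in untreated HL60.

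Among ligands of the oncostatin M family, their receptors and JAK-STAT signalling genes, 10 of 11 tested genes rose and 1 fell in HL60. OSM itself did not pass the test, and the only ligands among the 11 were LIF and CLCF1. The receptor genes OSMR and LIFR were not tested, with OSMR listed at 0 in every library and LIFR at 0.0860 FPKM or less. SOCS3, the feedback inhibitor of this pathway, stood at 19.6 and 18.7 FPKM in treated HL60, against 0.0883 and 0.107 in untreated HL60 (log2 change 4.20, adjusted p = 1.99e-07). The factor gene STAT3 rose by 1.55 and the ligand gene CLCF1 by 1.77. In Kasumi-1 2 rose and 1 fell.

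Of 5 tested colony stimulating factors and receptors other than CSF1, 1 rose and 2 fell in HL60, and 2 rose and 2 fell in Kasumi-1. CSF1R, the receptor of CSF1, was low throughout, at 0.0154 and 0.0283 FPKM in treated HL60 against 0.192 and 0.201 in untreated HL60, and at 1.05 and 1.42 FPKM in treated Kasumi-1 against 2.15 and 1.99 in untreated Kasumi-1. CSF3R, the receptor of granulocyte colony stimulating factor, fell in HL60 by 1.58 on the log2 scale and rose in Kasumi-1 by 0.43. CSF2RA, which rose in HL60, has more than 1 row in the table and its value is uncertain.

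For TGFB1, 11 of 16 tested genes of activation, receptors and SMAD factors rose and 1 fell in HL60, and 1 rose in Kasumi-1. SKIL and SMAD7, which restrain the pathway, rose by log2 changes of 3.05 and 1.52, and LRRC33, which holds latent TGF-beta on myeloid cells, fell to 19.0 and 18.3 FPKM in treated HL60, against 48.3 and 50.9 in untreated HL60. FURIN, the protease that cleaves the precursor, rose by 0.91 in HL60 and by 0.29 in Kasumi-1 (adjusted p = 7.9e-05 and 0.0487). Of 5 tested target genes 2 rose and 1 fell in HL60, and TGIF1, a repressor of SMAD-driven transcription, stood at 43.0 and 41.3 FPKM in treated HL60, against 16.8 and 17.98 in untreated HL60.

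Among 34 other interleukins, interferons and growth factors only 9 passed the filter on low values, of which 6 rose and 3 fell in HL60. VEGFA stood at 123 and 115 FPKM in treated HL60, against 24.1 and 22.0 in untreated HL60, and HBEGF and AREG rose by 2.18 and 2.42. GRN, which encodes progranulin, rose by 1.15 in HL60 and by 0.40 in Kasumi-1 (adjusted p = 5.02e-06 and 0.00544). Of 10 genes for proteins that control cytokine mRNA decay, 5 rose and 3 fell in HL60, and 1 rose and 1 fell in Kasumi-1. ZFP36, which encodes tristetraprolin, a factor that destabilizes TNF mRNA, stood at 82.0 and 82.4 FPKM in treated HL60, against 12.4 and 11.2 in untreated HL60, and rose in Kasumi-1 by 0.43. Its relative ZFP36L1 rose in HL60 by 2.36, and HNRNPD, which encodes the AU-rich element binding protein AUF1, fell by 0.67. KHSRP, which encodes another decay factor, fell by 0.40 in HL60 and by 0.30 in Kasumi-1. All 14 NF-kB subunit and inhibitor genes rose in HL60 and 6 of 14 rose in Kasumi-1. NFKB2 and RELB, which encode the subunits of the noncanonical pathway, had the smallest adjusted p. NFKB2 stood at 52.0 and 51.0 FPKM in treated HL60, against 3.11 and 3.24 in untreated HL60 (log2 change 3.65, adjusted p = 1.4e-07). RELB rose by 3.62 in HL60 and by 0.41 in Kasumi-1. NFKBIA, the inhibitor, rose by log2 changes of 2.70 in HL60 and 0.56 in Kasumi-1 (adjusted p = 4.27e-07 and 0.00335).

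**Figure D4:**
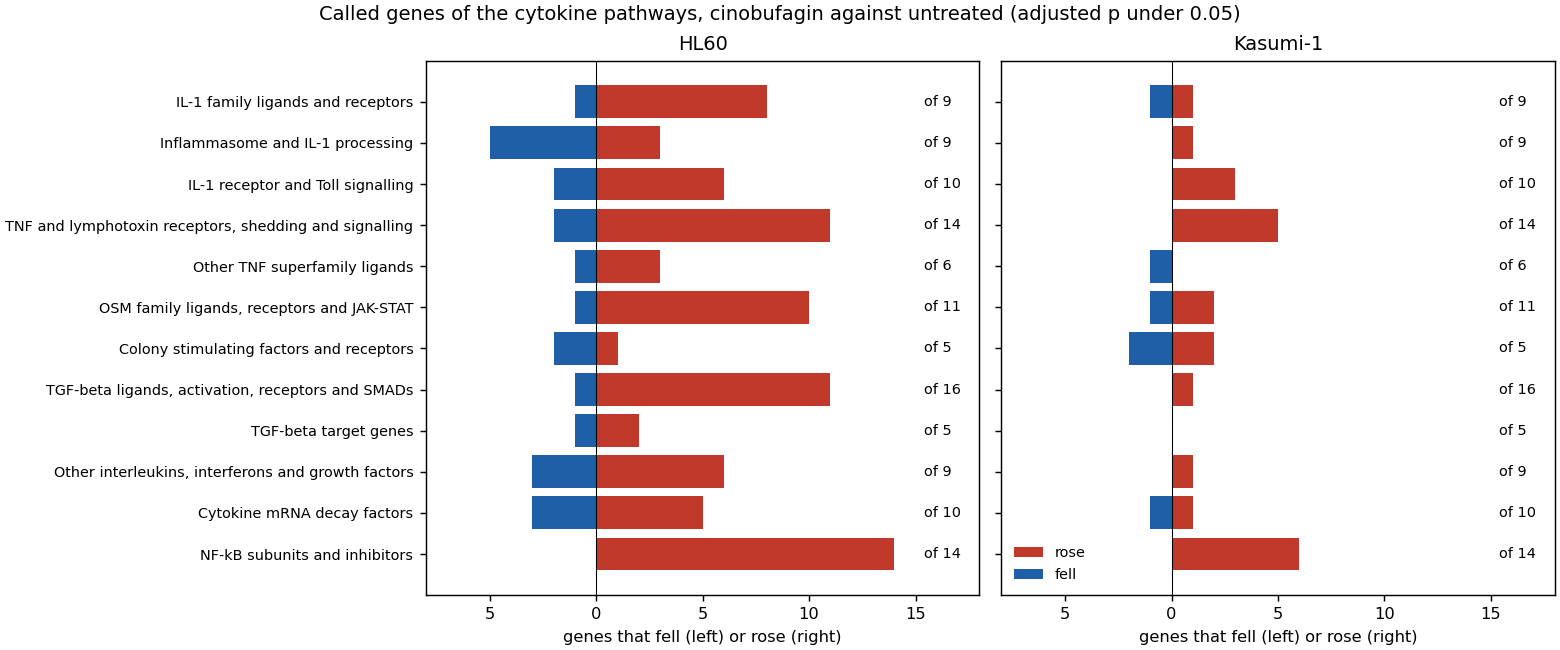
Number of genes of each cytokine pathway list that rose (red, right of 0) or fell (blue, left of 0) with cinobufagin in HL60 and Kasumi-1, at an adjusted p under 0.05; the number tested stands at the right. Over all tested genes 36.0% rose and 37.6% fell in HL60, and 10.1% rose and 16.2% fell in Kasumi-1. In HL60 all 14 NF-kB genes rose, whereas of the inflammasome genes 3 rose and 5 fell.

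The members were also set beside their chromosomal neighbours, a comparison chosen after values had been seen. Of all tested genes 36.0% rose and 37.6% fell in HL60, and 10.1% rose and 16.2% fell in Kasumi-1. In the RefSeq gene order of chromosome 6 TNF lies between LTA and LTB. LTA, which encodes lymphotoxin alpha, stood at 1.40 and 1.88 FPKM in treated HL60, against 0.0946 and 0.184 in untreated HL60, a log2 change of 1.21. NFKBIL1 on one flank and LST1 on the other also rose, by 0.90 and 1.50. Levels did not follow position: LST1 reached 401 and 389 FPKM in treated HL60, while NCR3 beyond it stayed under 1 FPKM in all 8 libraries. In the interleukin-1 cluster of chromosome 2, IL1A next to IL1B stood at 3.51 and 3.75 FPKM in treated HL60, against 0.143 and 0.120 in untreated HL60, while IL36G, IL36RN and IL1F10 were listed at 0 in every library. On chromosome 22 LIF, the neighbour of OSM and a cytokine of its family, stood at 1.48 and 1.43 FPKM in treated HL60, against 0.0451 and 0.0292 in untreated HL60. LTA and LIF reached 1 FPKM only in treated HL60, so they were tested only because they were high there, and no p is given for them. Next to TGFB1 on chromosome 19, B9D2, a gene of cilia, stood at 17.6 and 20.1 FPKM in treated HL60, against 2.86 and 3.69 in untreated HL60. Its log2 change of 2.22 was larger than that of TGFB1, and it also rose in Kasumi-1 (0.91, adjusted p = 0.00685). CCDC97, on the other side of TGFB1, rose in both lines, by 0.79 in HL60 and 0.38 in Kasumi-1. CKAP2L, beyond IL1A, rose by 1.21 in HL60. Of the neighbours of CSF1, AHCYL1 changed by −0.19 in HL60, GSTM3 did not pass the test and EPS8L3 was listed at 0 in every library. Near IL18, TIMM8B fell by 0.54 in HL60 and by 0.52 in Kasumi-1, SDHD did not pass the test and TEX12 was not tested. BCO2 was higher by 0.75 in treated than in untreated HL60. It reached 1 FPKM only in treated HL60, so it too was tested only because it was high there.

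**Figure D5:**
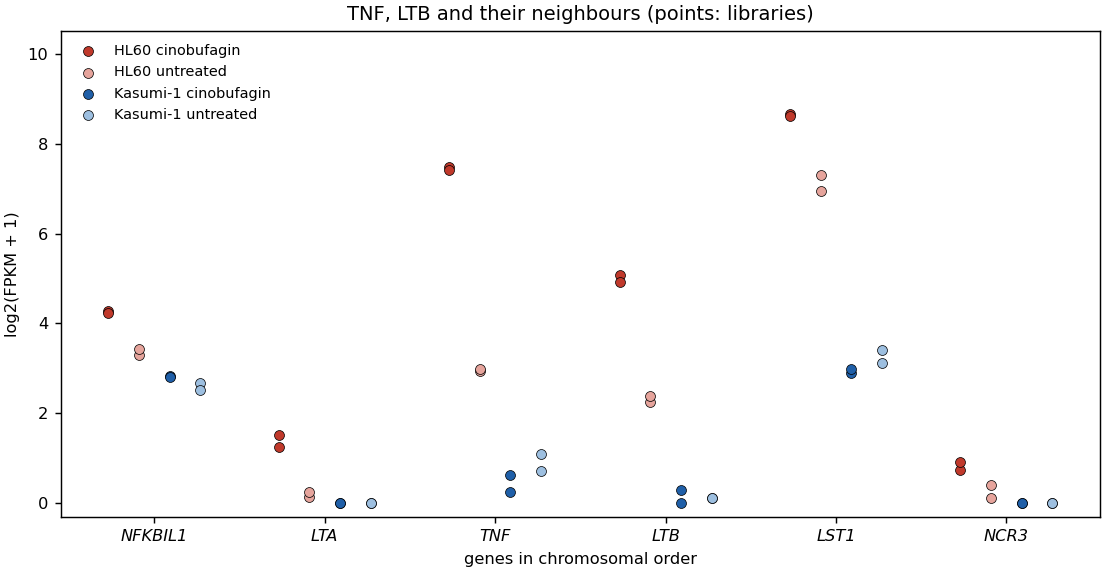
Level, as log2(FPKM + 1), of TNF, LTB and their neighbours in chromosomal order, with a point per library. NFKBIL1, LTA, TNF, LTB and LST1 are higher in treated than in untreated HL60, as is NCR3, which stays under 1 FPKM. In Kasumi-1 LTA is listed at 0 in all 4 libraries.

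By Pearson correlation of log2(FPKM + 1) over the 8 libraries, with 9120 other genes compared, the genes most like LTB were BCL2A1 (r = 1.000) and CCR1 (r = 0.999), and those most like IL1RN were CCRL2 (r = 0.999) and AGPAT9 (r = 0.999). BCL2A1, an antiapoptotic relative of BCL2, stood at 173 and 144 FPKM in treated HL60 against 12.4 and 13.6 in untreated HL60, and CCR1, a chemokine receptor, at 34.4 and 34.6 against 4.25 and 4.72. Those most like TNF were TATDN2 (r = 0.999) and FCGR2C (r = 0.998), whose near-identical relatives make its value uncertain, and those most like IL1B were YRDC (r = 0.998) and DDX39B (r = 0.997). TGFB1 was closest to ZRANB1 (r = 0.997) and SENP2 (r = 0.997), CSF1 to CARD8 (r = 0.998) and TXLNA (r = 0.997), IL18 to THOC3 (r = 0.993) and RABL2A (r = 0.992), and OSM to CEP72 (r = 0.996) and ZNF136 (r = 0.992). The 8 points share 4 groups of 2 libraries, so a high correlation says mainly that the group means are spaced alike.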

How the data were processed

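Per the labels' protocols, RNA from an RNeasy column was made into poly(A)-selected, strand-marking libraries. Cufflinks 2.2.1, HISAT2 2.1.0, bcl2fastq 2.20.0 and build hg19 are named in the submitters' processing notes. For annotation, strand setting and filters the sources used here name nothing. The authors deposited 1 table of FPKM values with a column per library, and all 8 columns were used. Without read totals, depth is known only as a ratio between libraries, from rows under 0.3 FPKM, so no counting interval was set and a listed 0 was not taken for absence.

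From the deposited FPKM, log2(FPKM + 1) was fitted with limma 3.58.1 in R 4.3.3, with 1 mean per group, all 8 libraries, an intensity trend and 4 residual degrees of freedom. Benjamini-Hochberg adjustment covered all 12511 tested genes. Permuting 2 against 2 libraries reaches no two-sided p under 0.33 and was not used. The code of the fit was run on simulated data with independent noise and few changed genes. Those data held no likeness between same-numbered libraries, so that run does not test the fit in the setting seen here. Deviations of same-numbered libraries from their group means correlated with r between 0.125 and 0.331 in all 6 pairs of groups. Without short RNAs r lay between 0.392 and 0.522. The numbers were therefore taken to pair the libraries, from the data and not from the labels. The main fit leaves this pairing out, and a fit with the replicate number as a block is given as an alternative. The members, lists and rules were chosen with earlier results of these data known. All members were named, and from each list up to 3 genes in HL60 and 2 in Kasumi-1 by smallest adjusted p with a mean of at least 5 FPKM. Genes beyond this rule (CSF1R, LIFR, OSMR, MPO, markers and chromosomal neighbours) were named after values were seen, and repeated symbols were counted once in lists. Some genes that the rule or the gene order selects are not reported here.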

Additional observations from a re-analysis of the deposited data

Results flagged for a closer look

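The cinobufagin change differed between the lines, by the interaction term of the fit, for 7 of the 8 genes. That count includes IL1RN and CSF1, which were tested only because treated HL60 was high, so it is a description. The difference in log2 change, Kasumi-1 minus HL60, was −3.83 for IL1B, −4.51 for IL1RN, −4.94 for TNF, −1.45 for CSF1, −1.64 for TGFB1 and −2.65 for LTB. It was 1.41 for IL18. In the same comparison 63.1% of all tested genes were called. The basal levels of IL1B, IL1RN, TNF and LTB were lower in untreated Kasumi-1 than in untreated HL60, and their part in the difference was not tested.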

How the results depend on the processing

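In HL60 the direction of all 8 genes and the call of the 7 changed genes held under every alternative in which the gene was tested. Leaving out a treated HL60 library took IL1RN and CSF1 below the filter, so the number of members called ranged from 5 to 7 in HL60 and in the difference between lines, and from 6 to 7 between untreated lines.

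Kasumi-1 was the comparison that moved. The members called there, 1 in all, became 2 with a pseudocount of 0.1, 2 with the replicate block (IL1B and TGFB1), and 0 without a filter on low values, with quantile normalization or with Kasumi-1 fitted alone, where IL1B was not tested. Leaving out a library gave 0 to 1. Over all genes the calls in Kasumi-1, 3292, became 1835 with that line alone and 1621 to 2749 when a library was left out, and 4749 with the replicate block. The block changed no other member's call. Without single Kasumi-1 libraries the calls numbered 1689 (untreated replicate 1), 1621 (untreated replicate 2), 1785 (treated replicate 1) and 2067 (treated replicate 2).

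Reversed signs were confined to values that did not pass the test. For OSM in Kasumi-1 the change was 0.01 with median ratio scaling (0.00786) or quantile normalization (0.0123), 0.15 without untreated replicate 1 and 0.13 without treated replicate 2. Over all leave-outs it ran from −0.176 to 0.148. For LTB in Kasumi-1 it was −0.0539 with a pseudocount of 0.1, and −0.119 to 0.169 over the leave-outs (lowest without treated replicate 1). For CSF1 between untreated lines it was −0.0323 with quantile normalization, and −0.0250 to 0.0538 over the leave-outs (below 0 without HL60 untreated replicate 1 or Kasumi-1 untreated replicate 2). With a common sum over rows other than short RNAs, the median difference between lines over all genes was −0.19. The cause was not tested. Read totals are unknown, so the counting error of IL1B, IL1RN, TNF, LTB and CSF1 in Kasumi-1, where most values were under 1 FPKM, could not be set.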
